A study of Mus musculus with 8 samples.

Results

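The cell cycle and DNA replication genes described here are 46 genes measured in mammary tumours of mice that had received SKI-606 (bosutinib), a Src and Abl kinase inhibitor, or vehicle. They were chosen by gene symbol: the minichromosome maintenance (Mcm), cell division cycle (Cdc), cyclin, cyclin-dependent kinase (Cdk), kinesin (Kif), centromere protein (Cenp), clamp loader (Rfc), replicative polymerase, polo and aurora kinase, Bub, ribonucleotide reductase (Rrm) and E2f families, and Mki67. Ccnd1 and the Cdc42 family were left out by the same rule. A probe was kept where its detection p was under 0.05 on 4 or more of the 8 arrays, and the brightest kept probe stood for its gene. Of 66 matching genes with 94 probes on the array, 46 genes with 57 probes were kept, out of 4137 named genes and 12281 probes kept in all. Each of the 46 was detected on at least 3 arrays of either group, so none entered through 1 group alone.

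The 8 tumours grew in female mice carrying the 634Mul MMTV-PyVT transgene on an FVB/N background (FVB/N-Tg(MMTV-PyVT)634Mul/J). It expresses the polyomavirus middle T oncoprotein under the mouse mammary tumour virus promoter, active mainly in mammary epithelium. Mice of the SKI-606 group (4 tumours) received the drug by oral gavage, 100 mg/kg, and those of the control group (4 tumours) received vehicle. The sources used here give neither the age of the mice nor the length of treatment. The series asks whether the drug moves such tumours towards differentiation, and for these genes the comparison shows whether proliferation-related transcripts differed between treated and control tumours.

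The cell cycle is driven by waves of transcription. E2F factors switch on genes for DNA replication at the entry to S phase. The Mcm helicase, loaded on origins with the help of Cdc6 before S phase, is then started. Polymerases, clamp loaders and ribonucleotide reductase carry out synthesis. A later wave, run by the MuvB complex with B-Myb and FoxM1, switches on genes for mitosis, among them cyclin B, Plk1, Cdc20 and the spindle kinesins. It acts through the CHR element, often beside CCAAT boxes bound by NF-Y. In quiescent or p21-arrested cells both waves are low.

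Promoters are shown for the 6 genes of the mitotic control, mitotic kinesin and licensing groups that had the widest range over the 8 tumours, since the results turn on them. Each is the RefSeq window (GRCm38.p6) of 250 bases before and 50 after the gene start, written 5′ to 3′ on the gene's strand. Capitals mark matches, on either strand, to the CHR letters TTTGAA, to CCAAT, and to the E2F letters TTTGGCG, or TTTCGCG, or else TTTCCCG, or lastly TTTGCCG. The windows lie at chr4:118437294-118437593 (minus strand) for Cdc20, chr7:135716330-135716629 (minus) for Mki67, chr13:100786437-100786736 (minus) for Ccnb1, chr7:122159185-122159484 (plus) for Plk1, chrX:100625815-100626114 (plus) for Kif4 and chr11:102925075-102925374 (minus) for Kif18b.
Cdc20: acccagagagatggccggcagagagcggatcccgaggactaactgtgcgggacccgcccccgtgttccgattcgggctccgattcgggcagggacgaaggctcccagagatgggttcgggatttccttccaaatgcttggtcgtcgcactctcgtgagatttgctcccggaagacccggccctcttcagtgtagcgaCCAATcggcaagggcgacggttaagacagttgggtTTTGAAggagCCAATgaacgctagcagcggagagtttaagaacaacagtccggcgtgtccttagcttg
Mki67: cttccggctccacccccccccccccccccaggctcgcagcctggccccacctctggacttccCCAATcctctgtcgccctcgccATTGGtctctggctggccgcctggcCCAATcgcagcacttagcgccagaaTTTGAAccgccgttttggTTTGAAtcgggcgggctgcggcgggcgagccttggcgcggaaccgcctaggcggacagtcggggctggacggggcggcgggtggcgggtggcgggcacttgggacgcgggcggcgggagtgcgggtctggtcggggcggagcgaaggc
Ccnb1: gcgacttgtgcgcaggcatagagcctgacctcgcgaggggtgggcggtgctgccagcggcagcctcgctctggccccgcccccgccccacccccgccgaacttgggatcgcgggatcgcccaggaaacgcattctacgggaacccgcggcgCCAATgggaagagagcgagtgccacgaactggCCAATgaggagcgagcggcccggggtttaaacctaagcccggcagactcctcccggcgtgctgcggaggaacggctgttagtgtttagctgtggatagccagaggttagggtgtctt
Plk1: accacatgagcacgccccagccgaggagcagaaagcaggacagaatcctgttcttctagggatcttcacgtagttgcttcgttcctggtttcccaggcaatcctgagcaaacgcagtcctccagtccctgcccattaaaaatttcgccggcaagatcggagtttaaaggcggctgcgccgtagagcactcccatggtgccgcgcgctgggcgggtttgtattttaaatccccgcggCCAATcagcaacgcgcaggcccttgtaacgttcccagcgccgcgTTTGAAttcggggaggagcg
Kif4: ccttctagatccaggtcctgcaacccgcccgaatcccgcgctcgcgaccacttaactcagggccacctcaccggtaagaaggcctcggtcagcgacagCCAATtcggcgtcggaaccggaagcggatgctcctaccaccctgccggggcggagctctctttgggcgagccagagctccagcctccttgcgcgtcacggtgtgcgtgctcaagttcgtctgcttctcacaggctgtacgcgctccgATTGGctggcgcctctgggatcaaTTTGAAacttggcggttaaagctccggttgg
Kif18b: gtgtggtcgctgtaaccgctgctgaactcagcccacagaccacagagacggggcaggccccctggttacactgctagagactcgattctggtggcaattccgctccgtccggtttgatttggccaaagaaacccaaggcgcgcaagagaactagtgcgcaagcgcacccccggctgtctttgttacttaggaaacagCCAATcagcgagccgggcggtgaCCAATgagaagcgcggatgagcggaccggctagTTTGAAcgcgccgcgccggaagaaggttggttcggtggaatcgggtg

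For contrast, the windows of the licensing genes Cdc6 (chr11:98907901-98908200, plus strand) and Mcm7 (chr5:138171834-138172133, minus strand) follow, marked in the same way. They were added after the matches had been seen.
Cdc6: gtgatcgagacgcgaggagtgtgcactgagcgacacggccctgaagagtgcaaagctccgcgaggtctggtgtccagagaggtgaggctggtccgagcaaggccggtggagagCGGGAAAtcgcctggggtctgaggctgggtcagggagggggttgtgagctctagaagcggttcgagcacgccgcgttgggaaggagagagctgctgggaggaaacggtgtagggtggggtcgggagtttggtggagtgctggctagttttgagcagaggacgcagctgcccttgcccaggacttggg
Mcm7: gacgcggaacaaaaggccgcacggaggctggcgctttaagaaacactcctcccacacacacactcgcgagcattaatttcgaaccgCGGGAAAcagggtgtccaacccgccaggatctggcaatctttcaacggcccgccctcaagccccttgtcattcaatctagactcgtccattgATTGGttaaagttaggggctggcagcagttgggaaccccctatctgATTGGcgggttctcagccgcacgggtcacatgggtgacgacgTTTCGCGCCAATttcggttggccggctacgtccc

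Windows were found for 44 of the 46 genes, and not for Kif21b and Cdk19. Among the 10 genes of the mitosis groups (mitotic control, mitotic kinesins and centromere proteins), 7 windows held the CHR letters (70%) and 9 held CCAAT (90%), against 18.1% and 37.9% of 27025 genes in the promoter table. CHR and CCAAT stood together in 7 of the 10 windows and in 7.12% of all. Ccnb1 held 2 CCAAT matches and no CHR letters in this window. In the 14 replication and G1-S genes, 8 windows held the E2F letters, against 6.85% of all genes, and 0 held CHR letters. These matches describe letters in the windows and not binding, and where a gene had several windows the first listed was used.

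Between treated and control tumours, genes of mitosis and of DNA replication were mostly lower with the drug, but unevenly among the treated tumours. Mitotic genes such as Plk1, Cdc20, Ccnb1 and Mki67 were far lower in SKI-606 replicate 3 than in any other tumour. For the 10 genes of the mitosis groups the median difference was -0.51 with all tumours. Leaving out SKI-606 replicate 3 brought it to -0.06, with 7 of the 10 below 0. Replication genes such as Rrm2, Mcm7 and Cdc6 were low in SKI-606 replicates 1 and 3, and at or near vehicle levels in replicates 2 and 4. Of the 22 members with other roles, such as the transport kinesins, 1 was lowest in replicate 3 and 2 were lowest in replicates 1 and 3 together. No member passed the threshold in limma with Benjamini-Hochberg adjustment over all 12281 probes (0 of 46 at an adjusted p under 0.05, where 0.00814% of all probes passed as higher and 0% as lower). The smallest adjusted p among members was 0.113.

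At an unadjusted p under 0.05, 7 members were lower (15.2%, against 10.3% of all probes) and 2 were higher (4.35%, against 6.04%). SKI-606 and vehicle values did not overlap for 3 members on the lower side (6.52%, against 7.42% of all probes) and 2 on the higher (4.35%, against 3.76%). These shares lay near the background of the whole array. The direction was less even: 36 of 46 members had a difference below 0 (78.3%, against 52.6%), and the members' median log2 difference was -0.18 beside -0.01 over all probes. More than 2-fold lower were 3 members, Rrm2, Cenpa and Cdc20 (6.52%, against 0.472% of all probes), and more than 2-fold higher 0 (against 1.05%). Without SKI-606 replicate 3 none of these 3 was 2-fold lower (Rrm2 -0.69, Cenpa -0.39 and Cdc20 -0.28), and the members' median was -0.08. The count was 6 with SKI-606 replicate 2 left out and 2 to 4 with any other array left out. Those below 0 included 23 of the 24 genes in the 6 cell cycle role groups (median -0.37) and 13 of the 22 others (median -0.02). Without SKI-606 replicate 3 the 6 cell cycle groups had 18 of 24 below 0 and a median of -0.17, and with replicate 2 left out the median was -0.57. The 7 lower members numbered 3 when SKI-606 replicate 1 was left out and 4 when replicate 3 was, and 2, 3 and 4 without vehicle replicates 1, 3 and 4. The 3 lower members without overlap became 9 with SKI-606 replicate 2 left out, and 5 with SKI-606 replicate 4 left out or without vehicle replicate 1 or 2. Shares of all probes were not taken for the counts with an array left out, so these have no background beside them. Fewer arrays also make a lack of overlap easier to reach for any probe.

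**Figure D1:**
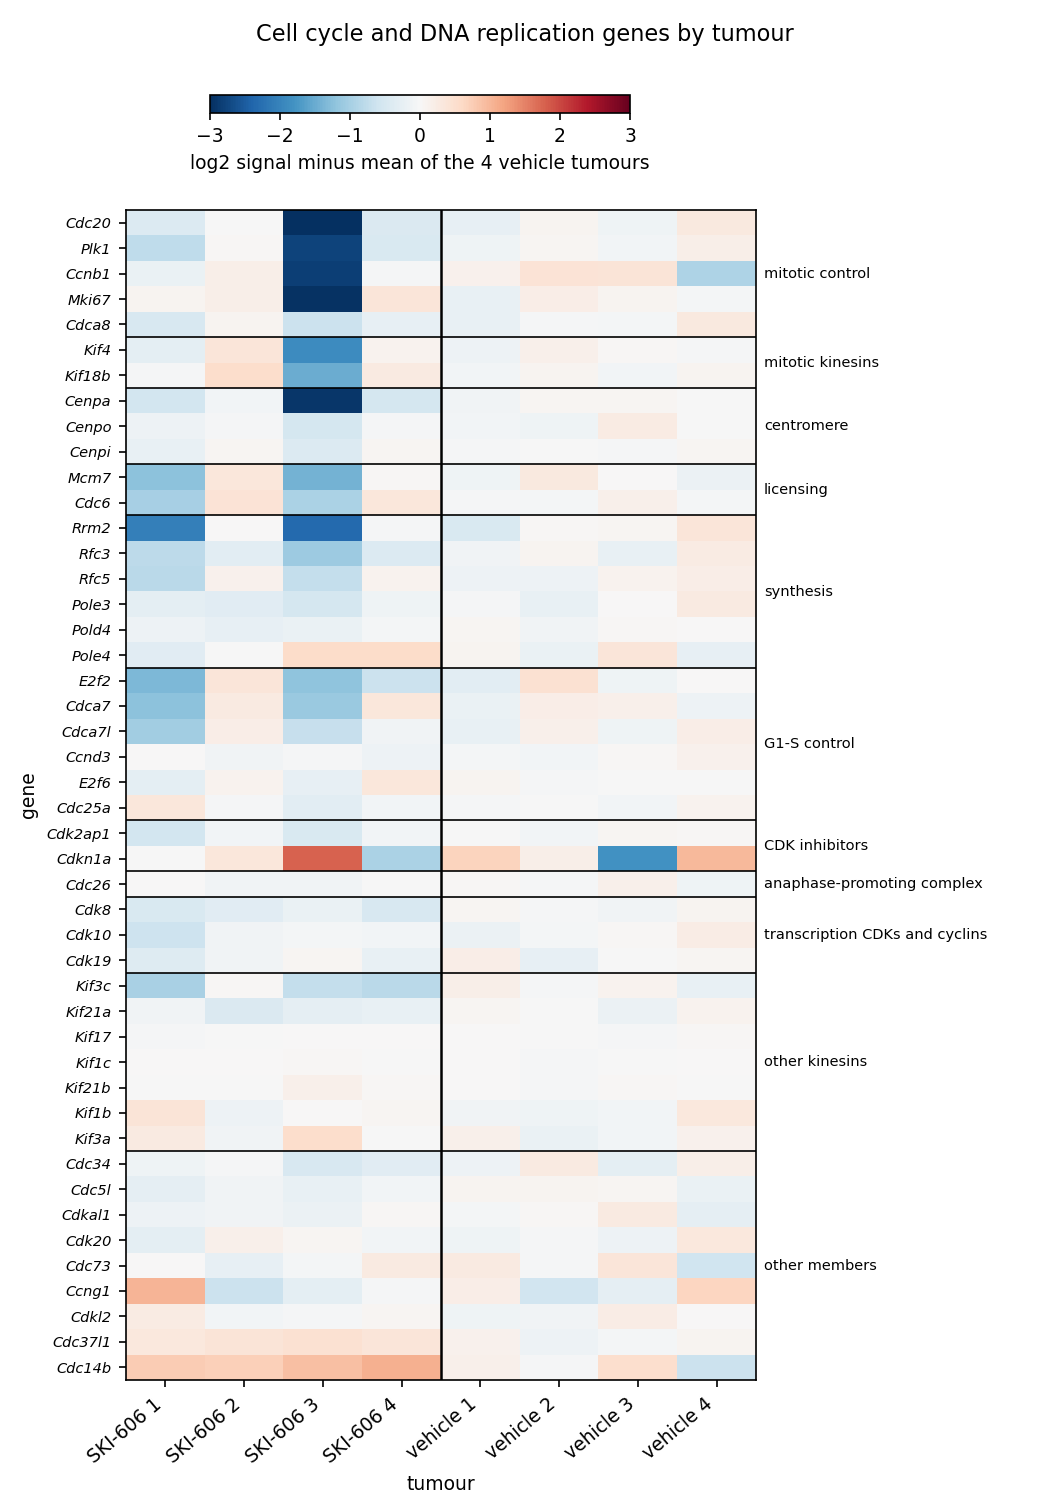
Normalized log2 signal of each of the 46 genes in each of the 8 tumours, minus the mean of the 4 vehicle tumours, with genes in rows by role and tumours in columns (blue lower, red higher, colours capped at 3). The deepest blue lies in SKI-606 replicate 3 in the mitotic rows, and replication and G1-S rows are blue in SKI-606 replicates 1 and 3.

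SKI-606 replicate 3 was the lowest of the 8 tumours for 16 of 46 members (34.8%, against 18.5% of all probes), including 10 of 10 in the mitosis groups. It lay more than 2-fold below every other tumour for 7 members (15.2%, against 0.391% of all probes): Cdc20, Mki67, Cenpa, Plk1, Ccnb1, Kif4 and Kif18b. SKI-606 replicates 1 and 3 were the 2 lowest tumours for 17 members (37%, against 12.1% of all probes). Of these, 9 were among the 14 replication and G1-S genes (64.3%) and 6 among the 10 genes of the mitosis groups (60%). These counts describe the arrays and were not tested, since the tumours were singled out after their values had been seen.

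The arrays with the fewest detected probes were SKI-606 replicates 1 (11837) and 3 (11901), the same tumours in which replication genes were low, against 11957 to 12578 on the others. Replicate 1 also had the lowest mean signal (300.3), and these arrays had the lowest array weights (0.436 and 0.390, next to 0.455 for vehicle replicate 4). The 18S rRNA signal was 6592, 5378 and 4136 in SKI-606 replicates 2, 3 and 4, below every vehicle array (8898 to 13712), and 10194 in replicate 1. The part of these array measures in the results was not tested. Of 10 epithelial markers listed, 4 were measured. In SKI-606 replicate 3 the keratins Krt8 (13.28) and Krt18 (13.06) and the factor Elf3 (7.31) were at their highest of 8 tumours. Krt19 was 8.84 in that tumour, within the 8.75 to 9.81 of the other tumours. The list's median deviation from the vehicle mean was 0.50 in SKI-606 replicate 3, -0.35 to 0.04 in the other SKI-606 tumours and -0.10 to 0.09 in vehicle tumours. The 7 fibroblast markers of 10 listed had a median deviation of 0.86 there, 0.35 to 0.68 in the other SKI-606 tumours and -0.26 to 0.10 in vehicle tumours. The 5 endothelial markers of 11 ran from 0.37 to 0.87 in SKI-606 tumours, with 0.38 in replicate 3, and from -0.17 to 0.15 in vehicle tumours. The 2 adipocyte markers of 9, Lpl and Pnpla2, had 2.17 in SKI-606 replicate 1, 0.86 in replicate 3, 0.18 and 1.37 in replicates 2 and 4, and -0.46 to 0.49 in vehicle tumours. The 4 macrophage markers of 7 ran from -0.37 to 0.18 and from -0.24 to 0.16, and of 10 T and B cell markers only Cd3e was measured, near the floor (6.03 to 6.49). The other listed markers were not kept. The part of these cell types in the results was not tested. In bulk tumour RNA, fewer dividing cells and less of a transcript per cell cannot be told apart. Treated tumours filled positions A to D of the chip and controls E to H, so chip position and treatment cannot be told apart either. In the labels of SKI-606 replicate 2, 1 field mentions human islet cells, which the remaining fields contradict, and its values are given with the rest.

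Mitotic control genes start and order cell division, and all 5 measured were lower on average, with a median of -0.72. Their per-tumour medians were -0.40, 0.09, -2.83 and -0.24 in SKI-606 replicates 1 to 4, against -0.22 to 0.17 in vehicle tumours. Without SKI-606 replicate 3 the median difference was -0.21, and with 1 array left out otherwise it stayed between -1.02 and -0.58. All values below are normalized log2 signals, on which the dimmest 5% of kept probes lie below about 6.06 to 6.08 in each array, so a gene near 6 has little room to be lower.

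Ccnb1 encodes cyclin B1, the partner that activates Cdk1 for entry into mitosis. It read 8.99, 9.37, 6.35 and 9.16 in SKI-606 replicates 1 to 4 and 9.31, 9.60, 9.58 and 8.26 in vehicle replicates 1 to 4. The other SKI-606 tumours lay inside the vehicle range, SKI-606 replicate 3 was 1.90 below the next-lowest tumour, and vehicle replicate 4 was low among controls. The difference was -0.72 ± 0.70 (log2, SE), with an adjusted p of 0.679 in limma, and -0.012 without SKI-606 replicate 3.

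Cdc20, which activates the anaphase-promoting complex, read 9.49, 9.88, 6.71 and 9.46 in SKI-606 tumours and 9.65, 9.97, 9.77 and 10.18 in vehicle tumours. Its difference was -1.01 ± 0.66 (SE), 2.01-fold lower, with a 95% interval of -2.56 to 0.54 (adjusted p = 0.520). SKI-606 replicate 3 stood 2.75 below the next-lowest tumour, and without it the difference was -0.28. For its other 2 probes, much dimmer at means of 6.60 and 6.57, the groups did not overlap and SKI-606 replicate 3 was again lowest, with differences of -0.54 ± 0.18 and -0.51 ± 0.18 (adjusted p = 0.213 and 0.228).

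Plk1, the polo kinase that drives spindle assembly and mitotic exit, read 9.27, 10.08, 7.26 and 9.59 in SKI-606 tumours and 9.90, 10.10, 9.94 and 10.21 in vehicle tumours. Replicates 1, 3 and 4 lay below every vehicle tumour and replicate 2 among them, and the difference was -0.99 ± 0.56 (SE; adjusted p = 0.444), or -0.39 without replicate 3. As deposited, before any correction, its signal was 181.7 in SKI-606 replicate 3 and 467.4 to 1328.5 elsewhere, where 52.1 was the lowest signal called detected on that array.

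Mki67, the antigen recognised by Ki-67 antibodies and present in dividing cells, read 9.67, 9.76, 6.63 and 9.96 in SKI-606 tumours and 9.38, 9.79, 9.67 and 9.54 in vehicle tumours. The other 3 SKI-606 tumours lay within the vehicle range or, in replicate 4, above it. Its difference of -0.59 ± 0.72 (SE; adjusted p = 0.750) became 0.20 without SKI-606 replicate 3. The deposited signal was 113.5 in that tumour and 618.4 to 1100.1 in the others.

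Cdca8, the borealin subunit of the chromosomal passenger complex, was dim and differed by -0.32 ± 0.18 (SE; adjusted p = 0.437). It ran from 6.04 to 6.78 in SKI-606 tumours and from 6.47 to 6.99 in vehicle tumours, with SKI-606 replicate 3 lowest, and it was detected on 3 of 4 SKI-606 arrays.

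**Figure D2:**
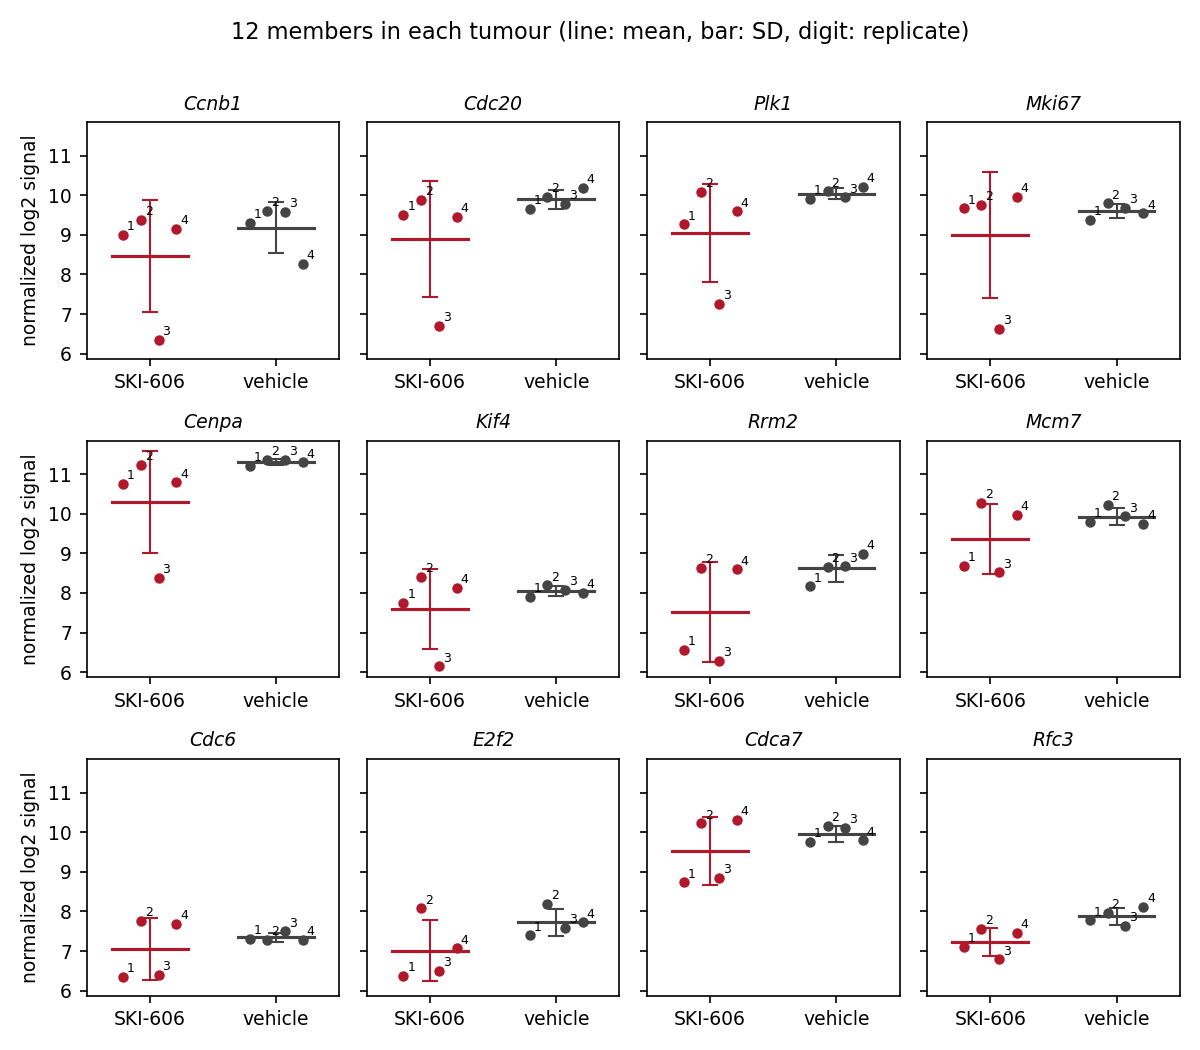
Normalized log2 signal of 12 members in the 4 SKI-606 (red) and 4 vehicle (grey) tumours, with points marked by replicate number, lines at the group mean and bars at ± 1 SD. In the panels for Ccnb1, Cdc20, Plk1, Mki67, Cenpa and Kif4 SKI-606 replicate 3 lies apart. SKI-606 replicates 1 and 3 lie below all other tumours for Rrm2, Mcm7, Cdc6, Cdca7, E2f2 and Rfc3, and also for Plk1, Cenpa and Kif4.

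The mitotic kinesins move chromosomes and spindle microtubules, and both measured members repeated the pattern. The chromokinesin Kif4 read 7.74, 8.40, 6.15 and 8.14 in SKI-606 tumours and 7.89, 8.19, 8.08 and 8.00 in vehicle tumours (difference -0.43 ± 0.46, SE; adjusted p = 0.708). Kif18b, which controls astral microtubule length, read 7.63, 8.21, 6.18 and 7.95 against 7.60, 7.75, 7.60 and 7.74 (difference -0.18 ± 0.41; adjusted p = 0.882). SKI-606 replicates 2 and 4 were above the vehicle mean for both, and replicate 3 was 1.60 and 1.41 below the next-lowest tumour. Without that tumour both differences turned positive, to 0.05 and 0.26.

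Centromere proteins build the platform on which kinetochores form. Cenpa, the histone H3 variant that marks the centromere, was the brightest of the mitotic members and read 10.75, 11.23, 8.38 and 10.79 in SKI-606 tumours and 11.21, 11.36, 11.36 and 11.29 in vehicle tumours. The vehicle tumours were nearly equal (SD 0.07), replicates 1, 3 and 4 of the drug group lay below all of them, and the difference was -1.02 ± 0.58 (SE), 2.03-fold lower (adjusted p = 0.445), or -0.39 without replicate 3. Cenpo and Cenpi, of the constitutive centromere network, differed by -0.19 ± 0.13 and -0.13 ± 0.11, with SKI-606 replicates 3 and 1 the lowest tumours for both.

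Licensing genes load the replicative helicase, and 2 were measured. Mcm7, a helicase subunit, read 8.69, 10.26, 8.52 and 9.96 in SKI-606 tumours and 9.80, 10.23, 9.93 and 9.75 in vehicle tumours, a difference of -0.57 ± 0.41 (SE; adjusted p = 0.557), or -0.35 and -0.29 without SKI-606 replicate 1 or 3. Replicates 1 and 3 were more than 1 log2 unit below the other 6 tumours, while replicate 2 was the highest of the 8. The loader Cdc6 read 6.35, 7.76, 6.40 and 7.69 against 7.31, 7.29, 7.50 and 7.28, so that its 4 vehicle values fell between the low and the high SKI-606 tumours (difference -0.30 ± 0.35; adjusted p = 0.747). Leaving out replicate 1 or 3 moved Cdc6 to -0.06 or -0.08.

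Genes of DNA synthesis were lower on average in 5 of 6 cases, with a median of -0.32, and -0.22 without SKI-606 replicate 3. Rrm2, the regulated subunit of ribonucleotide reductase, which supplies deoxynucleotides, read 6.57, 8.64, 6.30 and 8.59 in SKI-606 tumours and 8.16, 8.66, 8.67 and 8.99 in vehicle tumours. This was the lowest difference among members, -1.10 ± 0.59 (SE), 2.14-fold lower with a 95% interval of -2.47 to 0.27 (adjusted p = 0.414). It was -0.78 or -0.69 when replicate 1 or 3 was left out. Its deposited signal was 88.0 and 77.0 in SKI-606 replicates 1 and 3 and at least 345.8 in the rest.

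Rfc3, a subunit of the clamp loader that places PCNA on DNA, was the only gene of the 6 cell cycle groups whose treated and control values did not overlap on its brightest probe (2 dimmer probes of Cdc20 did not overlap either). It read 7.10, 7.56, 6.79 and 7.46 in SKI-606 tumours and 7.78, 7.97, 7.65 and 8.12 in vehicle tumours, a difference of -0.65 ± 0.19 (SE) with a 95% interval of -1.09 to -0.21 (adjusted p = 0.182). The lower level in all 4 treated tumours set it apart from Rfc5, another subunit, which read 8.35, 9.29, 8.44 and 9.28 against 9.01, 9.01, 9.28 and 9.37 (difference -0.33 ± 0.25; adjusted p = 0.581). The difference between the 2 subunits was not tested.

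Polymerase subunits with small differences were also measured. Pole3, a histone-fold subunit of polymerase epsilon, read 7.85, 7.79, 7.60 and 8.00 in SKI-606 tumours and 8.09, 7.91, 8.13 and 8.40 in vehicle tumours, a difference of -0.32 ± 0.12 (SE; adjusted p = 0.264). Pold4, of polymerase delta, read 8.03, 7.92, 7.98 and 8.11 against 8.24, 8.07, 8.21 and 8.18 (-0.16 ± 0.06; adjusted p = 0.271). In both, 1 SKI-606 tumour, replicate 4, overlapped the vehicle range. Pole4, the partner of Pole3, was the only member of the 6 cell cycle groups above 0, at 0.19 ± 0.24 (adjusted p = 0.760).

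The 6 genes of G1-S control had a median of -0.24, with all below 0 over the 8 tumours. The median was -0.16 without SKI-606 replicate 1 and -0.14 without replicate 3, where Cdc25a (0.071) and E2f6 (0.047) were above 0. E2f2, an activator E2F, read 6.38, 8.08, 6.51 and 7.07 in SKI-606 tumours and 7.40, 8.18, 7.59 and 7.72 in vehicle tumours (difference -0.71 ± 0.38, SE; adjusted p = 0.412). Replicates 1, 3 and 4 were below every vehicle tumour and replicate 2 was not. A dimmer E2f2 probe, with a mean of 6.08, differed by -0.04 ± 0.05.

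Cdca7, a target of Myc and E2F with a role in DNA methylation, read 8.73, 10.22, 8.85 and 10.30 against 9.76, 10.16, 10.11 and 9.79 (difference -0.43 ± 0.39; adjusted p = 0.656), or -0.17 and -0.21 without replicate 1 or 3. Its paralog Cdca7l ran from 8.06 to 9.30 in SKI-606 tumours and from 8.88 to 9.31 in vehicle tumours, with replicates 1 and 3 again lowest (-0.41 ± 0.27; adjusted p = 0.525). The repressor E2f6 (-0.03 ± 0.14), the phosphatase Cdc25a (-0.02 ± 0.13) and cyclin D3, Ccnd3 (-0.07 ± 0.07), differed little, and Ccnd3 was near the floor, between 6.10 and 6.38.

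Of the CDK inhibitors, Cdkn1a encodes p21, which halts the cycle in G1 downstream of p53 and other signals. It read 9.81, 10.16, 11.60 and 8.89 in SKI-606 tumours and 10.50, 10.01, 8.00 and 10.80 in vehicle tumours, a difference of 0.29 ± 0.76 (SE; adjusted p = 0.898). The highest value stood in SKI-606 replicate 3, where the mitotic genes were lowest, and its other probe was also highest there, at 10.79 against 7.74 to 10.51 elsewhere. Vehicle replicates 4 and 1 were next highest, at 10.80 and 10.50. Any link between Cdkn1a and the mitotic genes was not tested. Both vehicle and treated tumours varied widely, by an SD of 1.26 and 1.13, and the difference was -0.21 without SKI-606 replicate 3, -0.32 without vehicle replicate 3, and 0.70 when SKI-606 replicate 4 was left out. It was -0.021 with arrays scaled to the same median. Cdk2ap1, which binds and restrains Cdk2, read 12.57, 13.05, 12.68 and 13.04 against 13.11, 13.06, 13.17 and 13.17, without overlap (-0.29 ± 0.12; adjusted p = 0.290), though its highest SKI-606 value and lowest vehicle value differed by under 0.01.

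**Figure D3:**
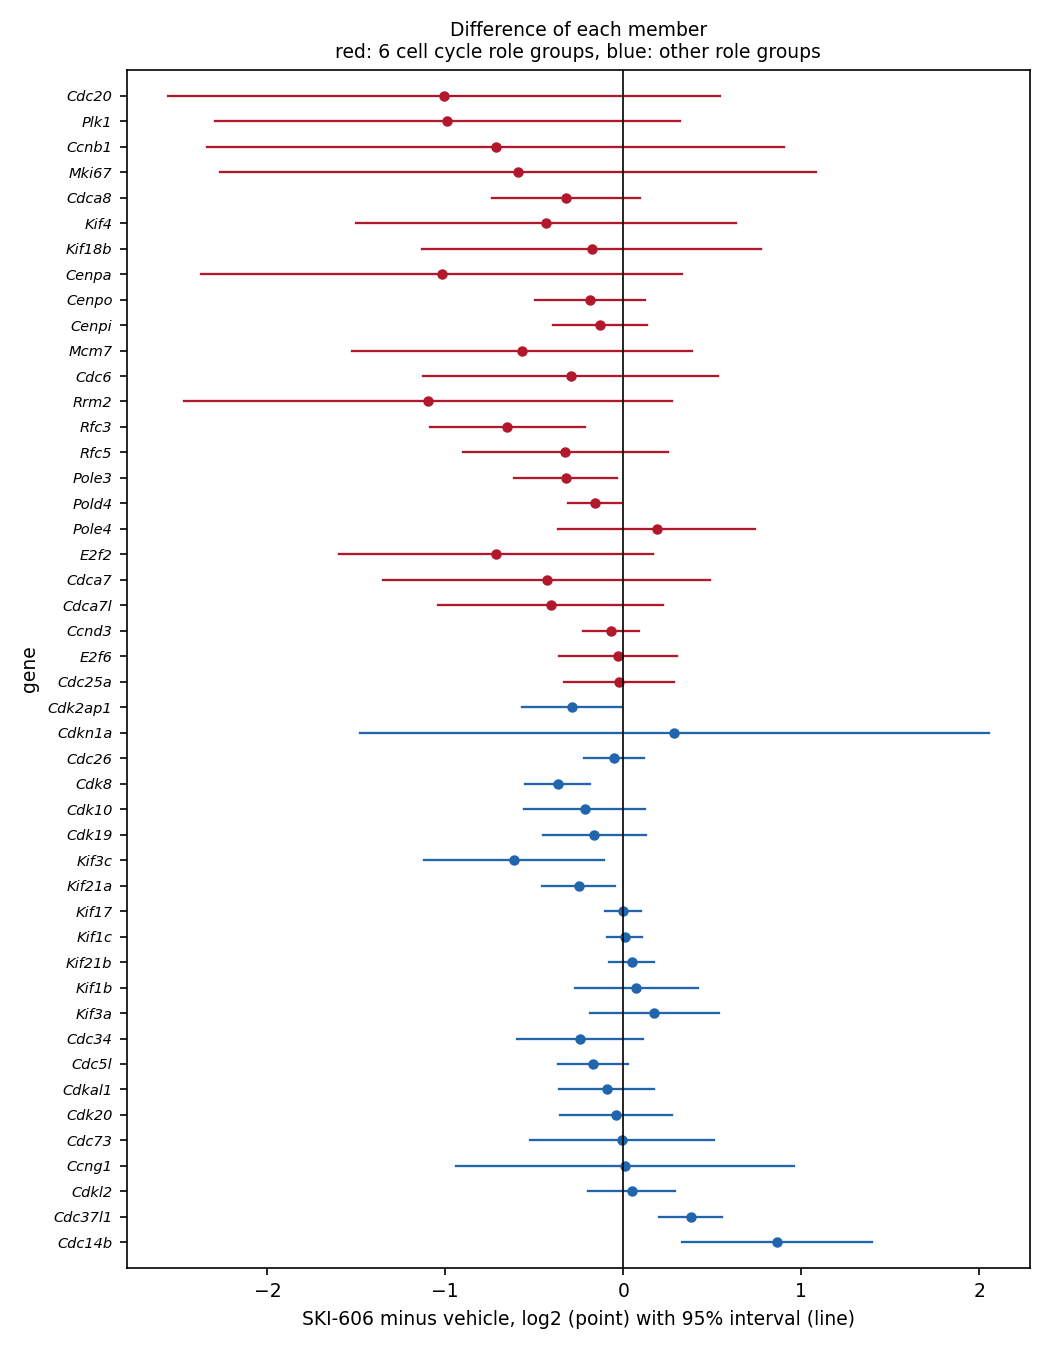
Difference in normalized log2 signal, SKI-606 minus vehicle, for each of the 46 members (points) with its 95% interval from limma (lines), red for the 6 cell cycle role groups and blue for the others. The red points lie to the left of 0, apart from Pole4. Their intervals are wide for many genes and narrow for others, such as Pold4 and Ccnd3. The intervals of Rfc3, Pold4, Pole3, Cdk8, Cdc14b and Cdc37l1 are among those that leave out 0.

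The kinases of transcription gave the member with the second-smallest p. Cdk8, the kinase of the Mediator module, read 8.56, 8.68, 8.81 and 8.54 in SKI-606 tumours and 9.07, 8.99, 8.91 and 9.10 in vehicle tumours. Every treated tumour lay below every control, the difference was -0.37 ± 0.08 (SE), 1.29-fold lower, and its 95% interval ran from -0.55 to -0.18 (adjusted p = 0.122). Unlike the mitotic genes it was not lowest in SKI-606 replicate 3, and without that tumour the difference was -0.42. With array weights Cdk8 passed, at an adjusted p of 0.0473, and over all alternatives its adjusted p ran from 0.0473 to 0.378. Its paralog Cdk19 (-0.16 ± 0.12; adjusted p = 0.581) and Cdk10 (-0.22 ± 0.15; adjusted p = 0.529) differed less and overlapped on their brightest probes. A dimmer Cdk10 probe, with a mean of 6.27, did not overlap (-0.16 ± 0.08; adjusted p = 0.386).

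Of the 7 kinesins of transport and cilia, 4 were above 0 and 3 below, with a median of 0.01. Kif3c, a subunit of a kinesin-2 motor, read 7.26, 8.25, 7.50 and 7.42 in SKI-606 tumours and 8.39, 8.18, 8.33 and 7.99 in vehicle tumours, so only replicate 2 overlapped (-0.61 ± 0.22; adjusted p = 0.234). Kif21a, a regulator of cortical microtubule growth, read 6.97, 6.65, 6.82 and 6.86 against 7.14, 7.07, 6.91 and 7.18 (-0.25 ± 0.09; adjusted p = 0.235), with overlap through SKI-606 replicate 1. Kif3a (0.18 ± 0.15), which works in cilia, the axonal motor Kif1b (0.07 ± 0.15), Kif21b (0.05 ± 0.05), Kif1c (0.01 ± 0.04) and Kif17 (-0.001 ± 0.043) had intervals that included 0, and the last 3 were near the floor. Kif3c has a dimmer probe at -0.15 ± 0.06 and Kif3a one at 0.15 ± 0.23.

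Both members that lay higher with the drug without overlap came from the remaining genes. Cdc14b, a phosphatase that opposes Cdk phosphorylation, read 8.12, 8.08, 8.26 and 8.42 in SKI-606 tumours and 7.51, 7.32, 7.87 and 6.72 in vehicle tumours, a difference of 0.87 ± 0.23 (SE), 1.82-fold higher (adjusted p = 0.163). Its treated tumours lay close together (SD 0.16, against 0.48 in controls), and vehicle replicate 4 was the lowest. Cdc37l1, a relative of the Hsp90 co-chaperone Cdc37, read 8.35, 8.43, 8.49 and 8.42 against 8.18, 7.89, 7.99 and 8.13 (0.38 ± 0.08; adjusted p = 0.113). This was the smallest p among members, but a dimmer probe of the gene differed by -0.13 ± 0.13, so the probes of Cdc37l1 disagree in sign.

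The splicing factor gene Cdc5l read 10.78, 10.95, 10.84 and 10.98 in SKI-606 tumours and 11.14, 11.13, 11.11 and 10.85 in vehicle tumours (-0.17 ± 0.09; adjusted p = 0.385). Others of this set were the ubiquitin-conjugating enzyme gene Cdc34 (-0.24 ± 0.15), Cdkal1 of tRNA modification (-0.09 ± 0.11), the Cdk-related kinase genes Cdk20 (-0.04 ± 0.14) and Cdkl2 (0.05 ± 0.10), Cdc73 of the Paf1 complex (-0.01 ± 0.22) and Ccng1, cyclin G1 and a p53 target (0.01 ± 0.41). Their adjusted p lay between 0.492 and 0.993. A dimmer Cdc34 probe did not overlap (-0.24 ± 0.10; adjusted p = 0.282), on the lower side. Cdc26, the single subunit of the anaphase-promoting complex measured, differed by -0.05 ± 0.07 (adjusted p = 0.781).

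The 20 matching genes that were not kept had no probe detected on more than 2 arrays. They were Aurkc, Bub1, Ccne2, Cdc23, Cdk12, Cdkl1, Cdkl3, Cdkn1b, Cenpc1, E2f3, E2f8, Kif15, Kif1a, Kif24, Kif27, Kif2a, Kif5a, Kif5b, Kif7 and Rrm2b. Kif1a reached 2 arrays, 1 in each group, and Ccne2 and Kif27 1 vehicle array each, while the remainder were detected on 0, so these probes carry no comparison.

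**Figure D4:**
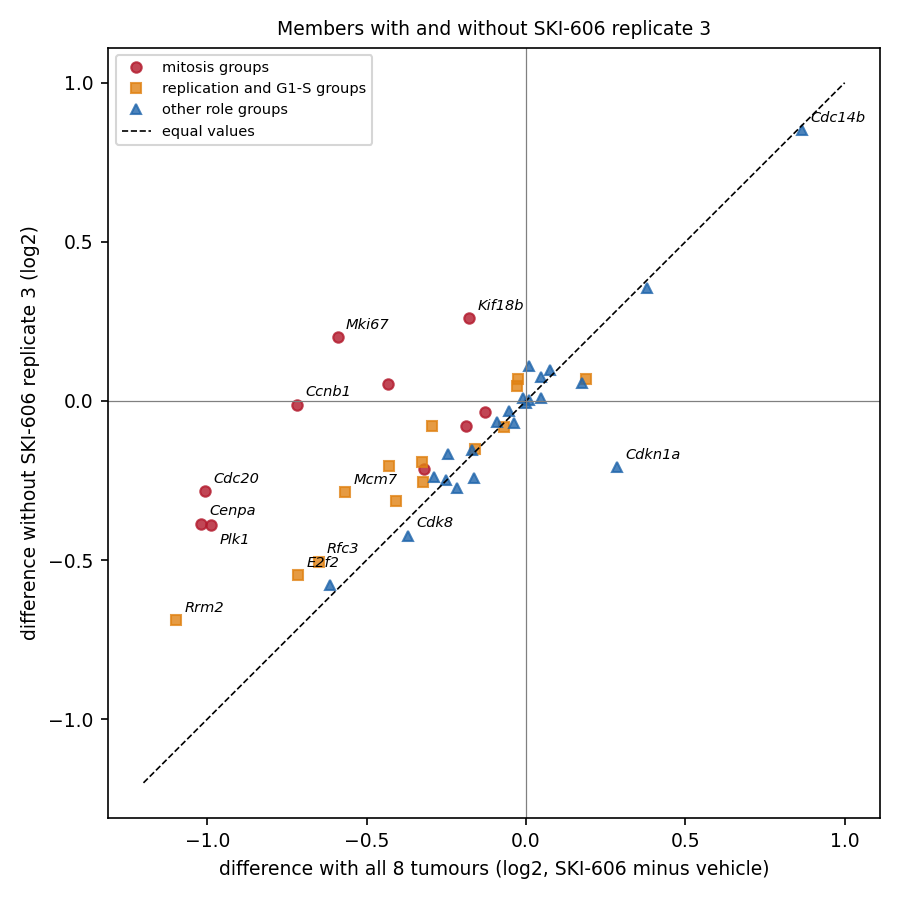
Difference (log2, SKI-606 minus vehicle) of each member with all 8 tumours on the x axis and without SKI-606 replicate 3 on the y axis, with red circles for mitosis groups, orange squares for replication and G1-S groups and blue triangles for other role groups. Of the red points, 7 lie well above the dashed line of equal values, as Mki67 does (-0.59 and 0.20), and most blue points lie near it, Cdkn1a apart.

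Genes of the same pathways outside the 46 were read from 2 further lists. Of 46 further mitosis genes listed, 11 were measured, all 11 were below 0 (median -0.29), 1 of them lower at an unadjusted p under 0.05 (9.09%, against 10.3% of all probes) and 0 at the adjusted threshold. SKI-606 replicate 3 was lowest for 9 of the 11 (81.8%, against 18.5% of all probes), and the list's median deviation was -1.91 in it, -0.34, 0.21 and 0.01 in replicates 1, 2 and 4, and -0.002 to 0.136 in vehicle tumours. The 4 with the smallest p were the checkpoint gene Zwilch (-0.17 ± 0.07), Spc24 of the Ndc80 complex (-1.07 ± 0.55), the spindle gene Tacc3 (-0.29 ± 0.24) and the cytokinesis scaffold Anln (-0.79 ± 0.68), with adjusted p from 0.268 to 0.631. Anln read 6.68 in SKI-606 replicate 3 and 9.30 to 9.99 in the other 7 tumours.

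Of 36 further replication genes listed, 11 were measured, 10 below 0 (median -0.21), with 1 lower at an unadjusted p under 0.05 (9.09%, against 10.3% of all probes) and 0 at the adjusted threshold. Rpa3, of the single-strand binding complex, read 9.34, 10.04, 9.01 and 9.84 in SKI-606 tumours and 10.37, 10.22, 10.37 and 10.33 in vehicle tumours, without overlap (-0.76 ± 0.22; adjusted p = 0.176). Uhrf1, which brings the maintenance methyltransferase to replicating DNA, read 9.01, 11.57, 8.80 and 11.18 against 11.03, 11.22, 11.24 and 10.86 (-0.95 ± 0.65; adjusted p = 0.534), again low in replicates 1 and 3. Gins3 (-0.21 ± 0.13) and Orc5 (-0.15 ± 0.09) overlapped. For 7 of the 11 (63.6%, against 12.1% of all probes), SKI-606 replicates 1 and 3 were the 2 lowest tumours. The further mitosis genes gave the same count, 7 of 11 (63.6%). Of 11 genes that restrain the cycle, 2 were measured and 0 passed the adjusted threshold: Btg1, an antiproliferative factor, read 8.63 to 9.24 in SKI-606 and 9.35 to 10.41 in vehicle tumours (-0.79 ± 0.25; adjusted p = 0.2), and Mxd4, a Myc antagonist, differed by -0.08 ± 0.19.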

How the data were processed

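RNA of 8 mammary tumours was measured on Illumina bead arrays, one array for each, from 8 ng of total RNA per the labels' protocols. The authors deposited an average signal intensity and a detection p-value for each probe and array, neither background-subtracted nor normalized between arrays, as the values show. No source used here names the array software. A second deposited table of normalized intensity values (11434 probes, method not stated) served only as an alternative. Groups and replicate numbers came from sample titles. Vehicle replicate 3 has no number in its title. Nothing in the labels ties each array to its own animal. The p-values therefore reflect only the variation among these 8 arrays, which may be technical, and 4 per group limit the precision.

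After 4 control probes were left out, the neqc function (limma 3.58.1, R 4.3.3) subtracted background estimated through the detection p-values, added an offset of 16, quantile-normalized the arrays and took log2. The 12281 probes detected (p under 0.05) on 4 or more of 8 arrays were fitted by lmFit and eBayes with group alone, with Benjamini-Hochberg adjustment over all of them. Genes were named by matching the zero-padded number of a probe identifier to gene IDs of a RefSeq table (GRCm38.p6), and promoter windows came from RefSeq on the same build. The fit was tested on simulated data with independent noise for each probe and array. That setting holds no tumour that is low for many genes at once, so it does not cover the pattern seen here.

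The members, role groups, further lists, motifs and named genes were chosen with earlier results of these data known, and sums over several role groups and counts of lowest tumours were added later. Every member is named, with values in every tumour for those without overlap between groups, the 10 smallest p, the 10 widest ranges and some fixed genes. No test over the members was made. Figures were drawn with matplotlib 3.10.9.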

Additional observations from a re-analysis of the deposited data

Results flagged for a closer look

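In 112 sets of 4 values (56 genes in either group), 9 held a value whose gap to its nearest neighbour exceeded Dixon's 95% critical value for 4 samples, or 8.04%, where chance gives about 5%. SKI-606 replicate 3 was that value for 5 genes: Ccnb1 at 6.353, Cdc20 at 6.708, Mki67 at 6.625, Cenpa at 8.381 and Tacc3 at 6.223, each the lowest of its group. SKI-606 replicate 1 stood apart for Cdk10, at 9.521. In the vehicle group, replicate 3 stood apart for Cdc6, at 7.5, and replicate 4 for Kif1b, at 10.02, and for Cdc5l, at 10.85. These 56 genes share the same 8 arrays and are not independent of each other.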

How the results depend on the processing

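The count of members past the adjusted threshold was 0 under 19 of 20 alternatives, and 1 with array weights (Cdk8), where 185 probes passed on the whole array. The count of lower members at an unadjusted p under 0.05, 7 in the main setting, was 12 with arrays scaled to the same median, 4 without background correction, 3 with the deposited normalized values, 4 with an intensity trend and robust prior, and 2 to 10 with 1 array left out. Lower members without overlap numbered 7 with the same-median scaling and 3 to 9 with 1 array left out. The 2 higher ones, by either count, were 0 with that scaling and 1 with the mean of a gene's probes. That scaling moved the median of all probes to -0.15, with 76.8% of all probes below 0, against 52.6% in the main setting. For the counts at an unadjusted p and without overlap, shares of all probes were not taken under the alternatives. With same-median scaling the members' median was -0.46, that of G1-S control -0.54, anaphase-promoting complex -0.18, centromere -0.50, other kinesins -0.14, other members -0.29, synthesis -0.65 and transcription CDKs and cyclins -0.52. With deposited values the other kinesins were at 0.071. With 1 array left out, the other members ran from -0.054 to 0.073.

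Deviations of same-numbered arrays correlated at 0.0044, 0.63 and -0.018 for the 3 numbers given in both groups' titles. These unlike values do not settle whether the replicate numbers pair the arrays. The replicate block over those 6 arrays gave 4 lower members at an unadjusted p under 0.05, the same count as these arrays without pairing (4), and 5 of 10 mitosis members below 0 (also 5 unpaired). Both fits leave out SKI-606 replicate 3. Sign changes met 22 of 56 gene differences under at least 1 alternative. With the replicate block, and equally unpaired, Ccnb1 was at 0.12, Cdc25a 0.042, Cdc26 0.017, Cdc73 0.13, Cdkal1 0.023, Cdkn1a -0.82, Cenpo 0.0020, E2f6 0.043, Kif18b 0.23, Kif1c -0.00034, Kif4 0.066, Mki67 0.23 and Tacc3 0.0044. With same-median scaling Ccng1 was at -0.30, Cdkl2 -0.080, Cdkn1a -0.021, Kif1b -0.23, Kif1c -0.014, Kif3a -0.14 and Pole4 -0.095. With array weights Cdc6 was at 0.032, Cdk20 0.047, E2f6 0.14, Kif17 0.014, Kif18b 0.14 and Kif1c -0.0055. With cyclic loess Ccng1 was at -0.012 and Kif17 at 0.0057. Without background correction Cdc73 was at 0.020 and Kif17 at 5.29e-05, and with deposited values Cdc73 was at 0.021. With 1 array left out the ranges were Cdkn1a -0.32 to 0.70, Cdc25a -0.15 to 0.071, E2f6 -0.15 to 0.059, Mki67 -0.91 to 0.20, Kif18b -0.42 to 0.26, Kif4 -0.70 to 0.052, Kif17 -0.014 to 0.0092, Kif1b -0.033 to 0.18, Kif1c -0.0033 to 0.019, Ccng1 -0.33 to 0.23, Cdc73 -0.21 to 0.11, Cdk20 -0.11 to 0.065, Cdkl2 -0.018 to 0.12 and Mxd4 -0.24 to 0.025. The cause was not tested. Members near the array's floor cannot show much lower values.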
